A study of Mus musculus with 3 samples.

Results

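The cytosolic ribosome is built from a large and a small subunit, each an assembly of ribosomal RNA with many ribosomal proteins, whose genes carry the prefixes Rpl (large) and Rps (small). The ribosomal proteins of the cytosolic ribosome were taken as the genes whose single symbol in the array's probe annotation starts with Rpl or Rps and a number, or is Rplp0, Rplp1, Rplp2 or Rpsa, leaving out the Rps6k kinases and pseudogenes. This took 65 of 7984 named genes, 40 of them with large-subunit and 25 with small-subunit symbols, and 241 of 12336 spots named by 1 gene. Read literally, the name rule also takes 7 genes that are paralogs or partners of ribosomal proteins: Rps27l, Rps4l, Rpl36al, Rpl7l1, Rpl39l, the retrogene Rps23rg1, and Rps19bp1, a protein that binds RPS19. Another 9 spots that the annotation pairs with a ribosomal protein gene and a further symbol were not used. Of the 65 genes, 63 had a ratio on all 3 arrays and were tested; Rpl39l and Rps23rg1 did not.

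The samples were 3 two-colour cDNA arrays of mouse RNA, forming 1 group: spleen was labelled with the green dye Cy3 and liver with the red dye Cy5 on each, both from bought total RNA amplified in a double round to cRNA. The labels give no strain, age or number of animals, nor whether the arrays came from separate amplifications. The p-values therefore rest on the variation among 3 arrays alone, and that variation may be technical. The dyes were not exchanged, and a dye effect cannot be told apart from a tissue effect. The deposited values were log2 ratios of the channels, and an exact 0 was read as a missing ratio. Positive ratios are called liver over spleen below, which is the likely direction and not one the labels give. It was taken from markers of the tissues: the hepatocyte genes Fgb and Ttr (Ttr measured on array 1 only) had medians of 4.55, 4.99 and 2.52 on arrays 1, 2 and 3, and the spleen genes Ms4a1, Ighm, Cd74 and Coro1a had -2.68, -3.06 and -1.57.

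Ribosomal protein mRNAs are among the most abundant transcripts of dividing and secreting cells. They begin with a short pyrimidine-rich tract, the terminal oligopyrimidine (TOP) motif, through which their translation answers to growth signals as a group, and their levels per cell are usually kept close to one another because the proteins are needed in equal amounts. Several have roles beside the ribosome: RPL5 and RPL11 bind the p53 inhibitor MDM2, and RPS6 is the substrate of the S6 kinases.

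The promoters of 6 members show the ends of the range described below: Rpl12, Rps4x and Rplp0 among the lowest ratios, Rps2 on the liver side, and Rps27 beside its paralog Rps27l, which lay on opposite sides. The 150 bases run 5′ to 3′ on the gene's strand from 120 bases before the annotated start to 30 bases after it (RefSeq, GRCm38.p6; for Rps27l, the one of its 2 listed starts that the table gives before the other). Capitals mark matches, on either strand, to the motifs named after the sequences. The positions are chr2:32961592-32961741 (plus strand) for Rpl12, chrX:102189362-102189511 (minus) for Rps4x, chr5:115559347-115559496 (plus) for Rplp0, chr17:24719943-24720092 (plus) for Rps2, chr3:90213619-90213768 (minus) for Rps27 and chr9:66945966-66946115 (plus) for Rps27l.
Rpl12: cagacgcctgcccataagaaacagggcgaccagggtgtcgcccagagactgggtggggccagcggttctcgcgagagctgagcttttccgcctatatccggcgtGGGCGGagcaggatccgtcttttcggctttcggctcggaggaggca
Rps4x: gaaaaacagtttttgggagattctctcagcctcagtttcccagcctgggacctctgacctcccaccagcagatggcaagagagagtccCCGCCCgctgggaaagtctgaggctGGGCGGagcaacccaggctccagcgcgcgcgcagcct
Rplp0: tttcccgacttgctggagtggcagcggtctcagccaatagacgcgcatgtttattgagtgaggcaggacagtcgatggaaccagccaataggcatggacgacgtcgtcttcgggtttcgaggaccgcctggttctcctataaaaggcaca
Rps2: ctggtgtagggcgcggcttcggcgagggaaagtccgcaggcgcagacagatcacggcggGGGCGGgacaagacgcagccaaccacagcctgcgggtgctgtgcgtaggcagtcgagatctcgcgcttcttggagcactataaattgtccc
Rps27: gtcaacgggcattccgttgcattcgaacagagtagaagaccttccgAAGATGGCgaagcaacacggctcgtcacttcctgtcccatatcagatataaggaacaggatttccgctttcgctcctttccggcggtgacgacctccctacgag
Rps27l: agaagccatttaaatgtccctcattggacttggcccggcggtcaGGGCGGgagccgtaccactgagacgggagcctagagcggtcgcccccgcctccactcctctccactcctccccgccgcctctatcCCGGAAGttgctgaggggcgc

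Members held each of the 4 motifs in a larger share of their promoter windows than promoters at large. RefSeq windows of 300 bases were found for 55 of the 65 genes (65 windows); Rpl17, Rpl21, Rpl29, Rpl32, Rpl7, Rplp1, Rps14, Rps20, Rps29 and Rps4l had none in the table. The letters CCGGAAG, a core bound by ETS-family factors, stood on either strand in 24 of 65 member windows (36.9%), against 8.86% of all 32851 windows. GGGCGG, the core of the Sp1 site, stood in 41 (63.1%) against 35.7%. CTCTTTCC, a pyrimidine run of the kind found at TOP starts, stood in 11 (16.9%) against 3.12%, and AAGATGGC, the core of the YY1 site, in 8 (12.3%) against 2.75%. The 11 windows with CTCTTTCC came from 8 genes (14.5% of 55, against 3.57% of all genes). A match on either strand anywhere in the window counted, so it need not lie at a transcript start. No 2 different motifs overlapped in a member window. Of the windows printed above, Rplp0 holds none of the motifs in the 150 bases shown, Rps4x holds GGGCGG on each strand, Rps27 holds AAGATGGC, and Rps27l holds CCGGAAG and GGGCGG. By gene, CCGGAAG was present for 12 of the 34 genes with a window that were called on the spleen side and for 3 of 6 on the liver side, and GGGCGG for 23 of 34 and 6 of 6. CTCTTTCC was present for 4 of 34 and 1 of 6, and AAGATGGC for 3 of 34 and 2 of 6. Over all 27025 genes with a window, the shares of these motifs were, in the same order, 9.93%, 38.2%, 3.57% and 3.19%. The 6 liver-side genes include Rps27l, Rpl7l1 and Rps19bp1, which are paralogs or partners. These matches describe letters in a window and were not tested against the ratios.

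Most ribosomal protein genes were modestly higher in spleen. Of 63 tested, 40 (63.5%) were higher in spleen and 7 (11.1%) in liver at an adjusted p under 0.05 (limma, Benjamini-Hochberg over all 5731 genes tested); over all genes 54.9% were called, 27.8% higher in spleen and 27.1% in liver. The median log2 ratio was -0.56, with per-array medians of -0.53, -0.54 and -0.50, against -0.03 over all genes. Without the 7 paralogs and partners, 39 of 58 were higher in spleen and 4 in liver, with a median of -0.56. Without array 1 the count on the spleen side fell to 19, all of them among the 40. The count on the liver side fell to 3. With each gene's own variance the spleen side held 21. The shares over all genes in these refits were not counted, and the 27.8% and 27.1% belong to the limma fit of all 3 arrays. In these bulk RNAs, a larger number of ribosome-rich cells and more ribosomal protein mRNA per cell cannot be told apart.

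The differences were small and similar in size. The 40 genes called on the spleen side ran from -0.36 to -1.27, with a median of -0.72, whereas the 1595 genes of the array called on that side reached -4.01 and had a median of -0.89. The interquartile range of the ratios was 0.57 over the 63 members and 1.02 over all genes. A mean of -1 or lower, which is 2-fold, was reached by 9 of the 63 members and by 687 of all 5731 genes, similar shares. When a 2-fold difference was itself tested (limma treat), no member passed on the spleen side (1 at an unadjusted p under 0.05). On the liver side 1 member, Rps27l, passed. All 3 arrays were below 0 for 50 of the 63 and above 0 for 9. Over all 5731 genes they were below 0 for 2194 and above 0 for 2153.

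**Figure D1:**
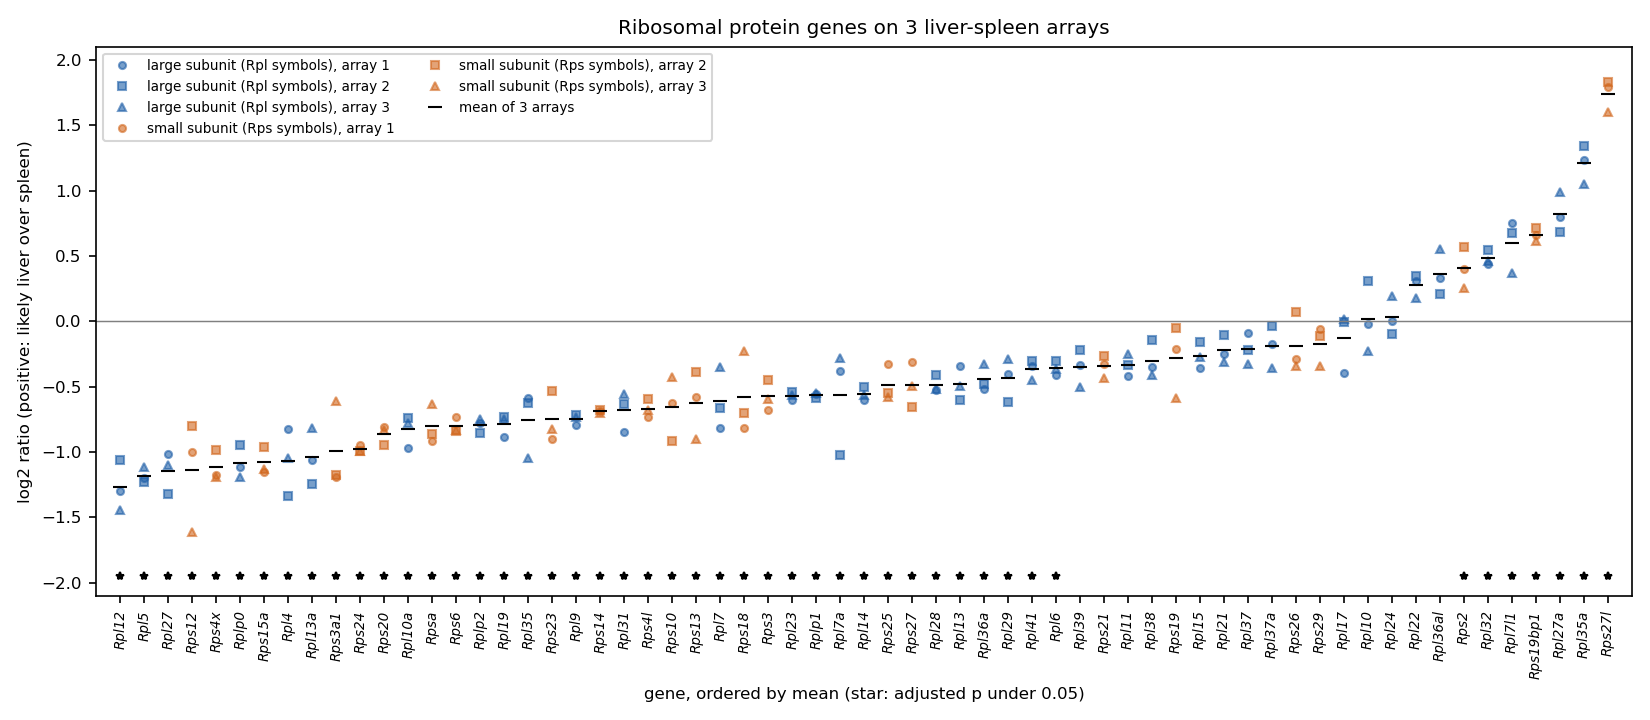
Log2 ratio (y axis; positive is likely liver over spleen) of each of the 63 tested ribosomal protein genes (x axis, ordered by mean), with arrays 1, 2 and 3 as circles, squares and triangles, large-subunit symbols in blue and small-subunit symbols in orange. Bars are means, stars mark an adjusted p under 0.05 (limma); 40 starred genes lie below 0, from -1.27 to -0.36, and 7 above it, from 0.41 to 1.74.

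Small-subunit genes lay somewhat further to the spleen side than large-subunit genes on each array. Of 24 small-subunit genes, 17 (70.8%) were called on the spleen side and 3 (12.5%) on the liver side. Of 39 large-subunit genes, 23 (59.0%) and 4 (10.3%) were. Without the paralogs and partners, 16 of 21 small-subunit genes (76.2%) were called on the spleen side and 1 (4.76%) on the liver side. For the large subunit these were 23 of 37 (62.2%) and 3 (8.11%), so the order of the subunits on the liver side turned. Over all genes the shares were 27.8% and 27.1%. The median of the small subunit was -0.68, -0.62 and -0.60 on arrays 1, 2 and 3, and that of the large subunit -0.41, -0.48 and -0.41. The small subunit was thus lower by 0.26, 0.15 and 0.19 log2 units. No test was made of this difference, since genes are not replicates and with 3 arrays exact two-sided sign-flipping cannot go below p = 0.25.

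Among large-subunit proteins, Rpl12, a protein of the stalk base where elongation factors bind, had the lowest ratio of all members. Its arrays read -1.30, -1.06 and -1.44, a mean of -1.27 ± 0.19 (SD, n = 3 arrays; 95% interval -1.59 to -0.94), or 2.41-fold higher in spleen (limma adjusted p = 0.000771). Its 3 clones averaged -1.20, -1.22 and -1.38, so each was on the same side and close to the others. Rpl5, which carries 5S ribosomal RNA into the large subunit, read -1.20, -1.23 and -1.11 (mean -1.18 ± 0.06, adjusted p = 0.000616). Its arrays were nearly equal, but its 2 clones stood apart at -1.42 and -0.94. Rpl4, a protein lining the exit tunnel, read -0.82, -1.34 and -1.05 (-1.07 ± 0.26, adjusted p = 0.00203), and its 3 fully measured clones lay between -1.17 and -1.05. Rpl13a, a surface protein known for a role in translational silencing after interferon-gamma, had a single clone and read -1.06, -1.25 and -0.81 (-1.04 ± 0.22, adjusted p = 0.00177). Rpl4 and Rpl13a kept their side but not their call with each gene's own variance (adjusted p = 0.0618 and 0.0522).

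The lateral stalk, which recruits and activates the translational GTPases, is made of Rplp0 and the acidic proteins Rplp1 and Rplp2, and all 3 genes were higher in spleen. Rplp0, the stalk's anchor and a frequent reference gene in expression assays, read -1.11, -0.95 and -1.19 (-1.08 ± 0.12, 2.12-fold, adjusted p = 0.000995). Rplp2 read -0.78, -0.85 and -0.75 (-0.79 ± 0.06, adjusted p = 0.00255), and Rplp1 read -0.56, -0.59 and -0.55 (-0.57 ± 0.02, adjusted p = 0.00838). Averaged over clones, the values of the 3 genes did not overlap: every array placed Rplp0 lowest and Rplp1 highest. Their single clones did overlap. The clones of Rplp2 spread from -1.09 to -0.51, wider than its arrays. The clones of Rplp0 measured on all arrays ran from -1.30 to -0.94, and those of Rplp1 averaged -0.70 and -0.43. Rplp1 lost its call without array 1 (adjusted p = 0.0801; 0.00377 to 0.0801 over its alternatives other than the 2-fold test).

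Among small-subunit proteins the lowest ratios belonged to Rps12, Rps4x, Rps15a and Rps3a1. Rps12, a protein of the beak, had a single clone, which read -1.0, -0.80 and -1.61 (-1.14 ± 0.42, adjusted p = 0.00397); array 3 lay well below the other 2, and with the gene's own variance the adjusted p was 0.0971. Rps4x, whose gene is on the X chromosome, read -1.17, -0.98 and -1.19 (-1.12 ± 0.12, adjusted p = 0.000867). Its 5 clones lay between -1.21 and -1.01. Rps15a read -1.15, -0.96 and -1.13 (-1.08 ± 0.10, adjusted p = 0.000936) and its 4 fully measured spots lay between -1.26 and -1.07. Rps3a1 read -1.19, -1.18 and -0.61 (-0.99 ± 0.33, adjusted p = 0.00393), and its call was lost with its own variance (adjusted p = 0.0866). Its array 3 value included a BG clone that had a ratio on that array only (0.19), beside clones at -0.74 and -1.27, and with fully measured spots alone the gene stood at -1.13 (adjusted p = 0.000604). Rpsa, the laminin receptor precursor that also sits on the 40S head, read -0.91, -0.86 and -0.63 (-0.80 ± 0.15, adjusted p = 0.00329), and its 4 clones lay between -0.82 and -0.77.

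Between these and the threshold the other spleen-side genes formed a graded series. Rps24, with 12 spots the most often printed member, averaged -0.97 ± 0.03, and all 9 of its fully measured spots were called on the spleen side. Rps20 averaged -0.86 ± 0.07, Rpl10a -0.83 ± 0.12, Rps6 -0.80 ± 0.06 and Rpl19 -0.79 ± 0.08. Rps6, the S6 kinase substrate, had 7 fully measured spots, all called on the spleen side. Rpl35, Rps23, Rpl9, Rps14, Rpl31, Rps10, Rps13, Rpl7 and Rps18 followed, with means between -0.75 and -0.58. Rps3, Rpl23, Rpl7a, Rpl14, Rps25, Rpl28, Rpl13, Rpl29, Rpl41 and Rpl6 had means between -0.57 and -0.36. The calls of Rpl7a (limma adjusted p = 0.0428), Rpl13, Rpl29, Rpl41 and Rpl6 were each lost when any 1 array was left out. Of the other genes in these ranges of means, only Rpl35 and Rpl9 kept their call without array 1. Rps13, Rps25 and Rpl28 lost theirs without array 3 as well. Rpl41, whose product is a peptide of very few residues, was printed as 11 clones, whose means ran from -0.72 to -0.17 and of which 4 were called on the spleen side. The 4 clones of Rpl9 lay within 0.03 of one another, from -0.76 to -0.73.

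Of the 16 genes that were not called, 12 had a mean below 0, and 10 of these were below 0 on all 3 arrays. Rps21 (-0.34, adjusted p = 0.0509), Rpl11 (-0.34, adjusted p = 0.0536) and Rpl39 (-0.35, adjusted p = 0.0557) were just outside the threshold, where Rpl6 (-0.36, adjusted p = 0.041) and Rpl41 (-0.36, adjusted p = 0.041) were just inside. Rpl38, Rps19, Rpl15, Rpl21, Rpl37, Rpl37a, Rps26 and Rps29 had means between -0.30 and -0.17. Rpl10, which completes the subunit joining face late in assembly, read -0.02, 0.31 and -0.23 (0.02 ± 0.27), with arrays on both sides of 0. Rpl24 read 0.01, -0.10 and 0.20 (0.04 ± 0.15), and Rpl17 read -0.39, -0.0026 and 0.02 (-0.13 ± 0.23). The 95% intervals of these 3 ran from -0.34 to 0.38, from -0.27 to 0.34 and from -0.47 to 0.22. The called means nearest to 0 were -0.36 (Rpl6) and 0.41 (Rps2), and of the 3 intervals that of Rpl17 reached one of them. Rpl22, which binds small viral RNAs and has a role in lymphocyte development, stood at 0.28 ± 0.09 (adjusted p = 0.0903) on the liver side.

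Of the members, 7 were higher in liver, and 3 of them belong to the paralogs and partners. Rps27l, a paralog of Rps27 that p53 induces, read 1.79, 1.83 and 1.60, a mean of 1.74 ± 0.12 (3.34-fold higher in liver, adjusted p = 0.000214). All 3 of its clones were called on the liver side, at 1.66, 1.78 and 1.79, and no member lay further from 0. Rps27 itself, a zinc-finger protein of the small subunit, read -0.31, -0.65 and -0.49 (-0.48 ± 0.17, adjusted p = 0.0222), on the spleen side on every array. The call of Rps27 rested on 1 clone and was lost without array 1 (adjusted p = 0.0833), 2 (0.0662) or 3 (0.0741) and with its own variance (0.0924), with a lowest adjusted p of 0.0187 over its alternatives; that of Rps27l held in each alternative run, from 5.16e-06 to 0.0248 leaving aside the 2-fold test.

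Other paralogs were set beside their parent genes. Rpl7l1, an RPL7-like protein, read 0.75, 0.67 and 0.37 (0.60 ± 0.20, adjusted p = 0.0126), against -0.81, -0.66 and -0.35 for Rpl7 (-0.61 ± 0.24, adjusted p = 0.0143). The arrays of the pair did not overlap, though both calls were lost without array 1 (adjusted p = 0.113 and 0.122) and with each gene's own variance (0.0878 and 0.104); leaving aside the 2-fold test, the lowest over their alternatives were 0.00265 and 0.00238. The array 3 value of Rpl7 averaged its AK clone (-0.89) with a BG clone that had a ratio on array 3 only (0.20). The AK clone alone, the 1 measured on all arrays, averaged -0.79 (adjusted p = 0.00238). Rpl36al, an autosomal paralog of the X-linked Rpl36a, read 0.33, 0.21 and 0.55 (0.37 ± 0.17) and was not called (adjusted p = 0.055). Rpl36a read -0.52, -0.48 and -0.32 (-0.44 ± 0.10, adjusted p = 0.0239), a call that did not hold once array 1 (adjusted p = 0.164) or array 2 (0.056) was removed, or with its own variance (0.0581). Rps4l lay on the same side as Rps4x, at -0.73, -0.60 and -0.67 (-0.67 ± 0.07, adjusted p = 0.00487), and its call was lost without array 1 (adjusted p = 0.0632). Rpl39l had ratios on arrays 1 and 3 only, -0.77 and -0.38, and Rps23rg1 on array 3 only, 0.02. Rps19bp1, also known as an activator of the deacetylase SIRT1, read 0.66, 0.72 and 0.61 (0.66 ± 0.05, adjusted p = 0.00478), and its call was lost without array 1 (adjusted p = 0.0573). Its 1 clone measured on all arrays averaged 0.85, and the other clone, with ratios on arrays 1 and 3, read 0.45 and 0.26. Paralogs share sequence, and how far a cDNA spot of one also bound the other's transcript was not tested.

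**Figure D2:**
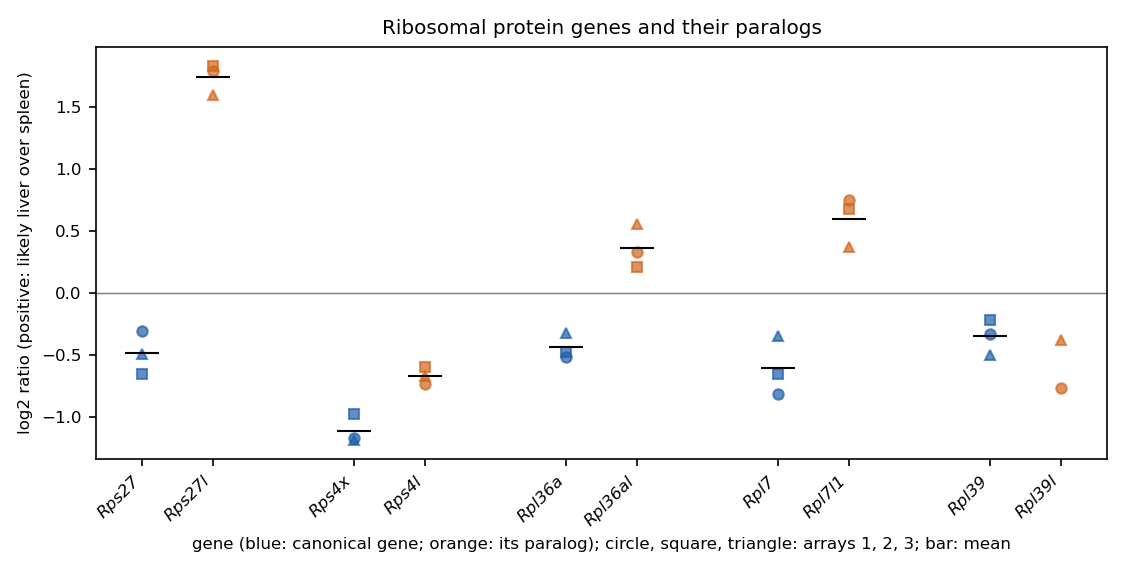
Log2 ratio (y axis; positive is likely liver over spleen) of 5 ribosomal protein genes (blue) beside their paralogs (orange), with arrays 1, 2 and 3 as circle, square and triangle and the mean as a bar where all 3 arrays had a value. Rps27l (1.74) and Rpl7l1 (0.60) lie above 0 and Rps27 (-0.48) and Rpl7 (-0.61) below it on each array, whereas Rps4x and Rps4l lie on the same side.

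The remaining 4 liver-side genes were Rps2, Rpl32, Rpl27a and Rpl35a, and only the clones of Rps2 shared a side. Rps2, a protein of the messenger entry channel, read 0.40, 0.57 and 0.26 (0.41 ± 0.16, adjusted p = 0.0365), with its 2 clones at 0.40 and 0.42. Its call was lost without array 1 (adjusted p = 0.174), 2 (0.123) or 3 (0.0554), with scaled arrays and with its own variance, over alternatives that started at 0.0307. For Rpl35a, Rpl27a and Rpl32 the side depended on the clone, as did the near-threshold value of Rpl39 and the size of Rpl27, and these genes are given clone by clone. A clone is taken here as the spots that share 1 accession in the annotation, named by the letters that open it.

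Rpl35a read 1.23, 1.35 and 1.05 (1.21 ± 0.15, adjusted p = 0.000734). Its AW clone, printed as 4 spots, averaged 1.60 with spots between 1.57 and 1.66, all called on the liver side. Its AK clone read -0.25, 0.02 and -0.86 and was not called; without AW and AU clones the gene stood at -0.36 (adjusted p = 0.164). Rpl32 read 0.44, 0.55 and 0.46 (0.48 ± 0.06, adjusted p = 0.0154), a call lost without array 1 (adjusted p = 0.104). Its AW clone averaged 0.97 over 4 spots, each called on the liver side, and its 2 AK clones averaged -0.50 and -0.49, each called on the spleen side. Its mean was -0.50 without AW and AU clones (adjusted p = 0.0169) and -0.01 when spots were averaged by clone before the gene (adjusted p = 0.965), so its side turned. Rpl27a read 0.80, 0.68 and 0.99 (0.82 ± 0.16, adjusted p = 0.00307). Its AW clone averaged 1.91, and its 3 AK clones averaged 1.17, -0.20 and -0.67, the first called on the liver side and the last on the spleen side. Without AW and AU clones Rpl27a stood at 0.10 (adjusted p = 0.484). Rpl39 read -0.33, -0.22 and -0.50 (-0.35 ± 0.14): 3 AK clones averaged -0.87, -0.83 and -0.71, all called on the spleen side, and another AK clone averaged 1.01, called on the liver side. The median of its spots was called on the spleen side (-0.70, adjusted p = 0.00852), and its spot with the largest absolute ratio on the liver side.

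On the spleen side, Rpl27 read -1.02, -1.32 and -1.10 (-1.15 ± 0.16, adjusted p = 0.000935). Its AW clone averaged -1.71 over 4 spots, while its other 3 clones averaged -0.49, -0.39 and -0.30. All its clones lay below 0, and its mean was -0.72 with spots averaged by clone before the gene (adjusted p = 0.0035) and -0.39 without AW clones (adjusted p = 0.0448). Of Rps23, 5 clones averaged between -1.09 and -0.83, and 1 read -0.25, 1.06 and 0.12, with arrays on both sides of 0.

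**Figure D3:**
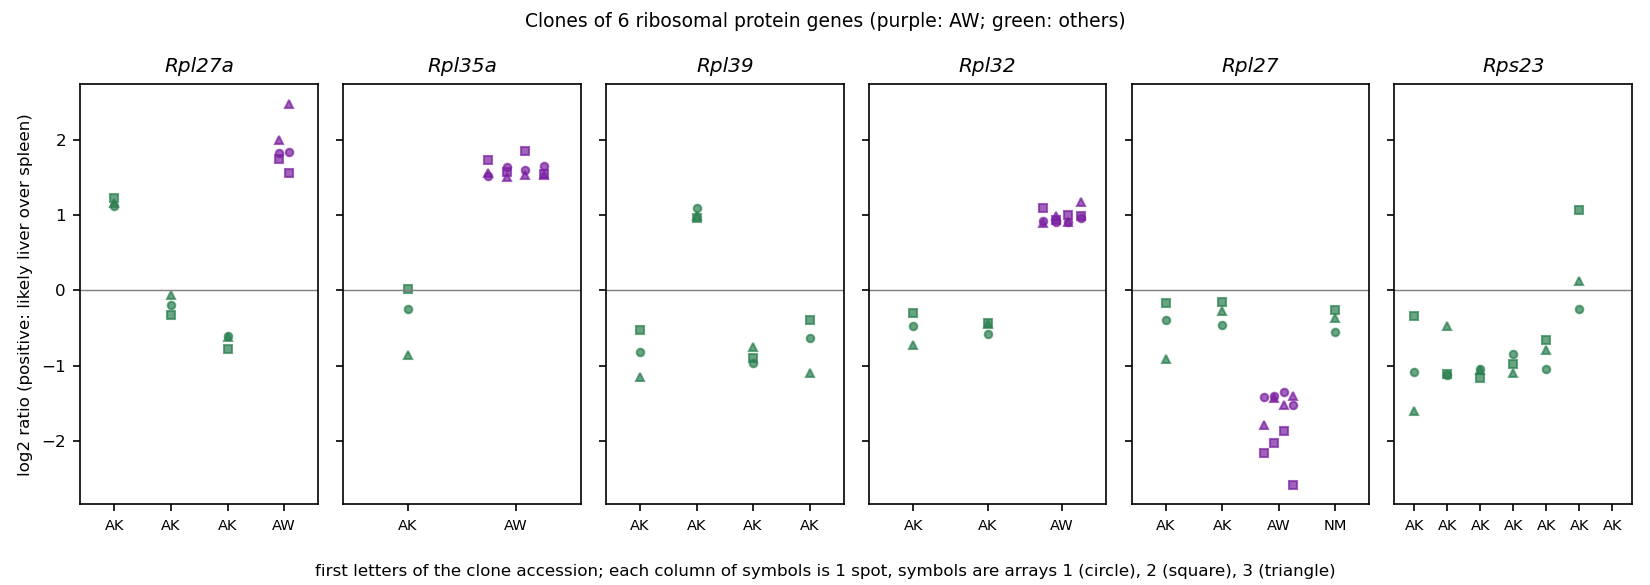
Log2 ratio (y axis; positive is likely liver over spleen) of every spot of the 6 ribosomal protein genes whose clones lay furthest apart, grouped by clone (x axis, named by the first letters of its accession; AW clones purple, others green), with arrays 1, 2 and 3 as circle, square and triangle. The AW clones lie above 0 for Rpl27a (1.91), Rpl35a (1.60) and Rpl32 (0.97) and below 0 for Rpl27 (-1.71), and the spots of a clone lie together.

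By the median SD, spots of 1 clone resembled one another more closely than different clones of 1 gene. The median SD over arrays was 0.17 for a member spot, the median SD over spots of 1 clone was 0.09 (13 clones printed more than once), and the median SD over clones of 1 gene was 0.19 (45 genes). The SDs over spots and over clones were taken from means of 3 arrays. The SD over arrays was taken from single arrays and is not a like measure. The AW clone of Rpl7a had the widest spots, at -1.20, -0.50 and -0.05 (SD 0.58). The other Rpl7a clone had a ratio on array 3 only (0.30). Over all named spots the same 3 values were 0.22, 0.16 and 0.27. The clones of a gene lay more than 1 log2 unit apart for 6 of the 45 members (13.3%) and for 20.6% of all genes with several clones. Spots called on opposite sides were found for 3 of 47 members with more than 1 fully measured spot (6.38%; Rpl27a, Rpl32 and Rpl39) and for 6.02% of all such genes. Of the 212 fully measured member spots, 138 were called higher in spleen and 19 in liver, against 30.2% and 29.7% of all 8284 spots fitted. Member spots from AK clones, each a separate clone, were called higher in spleen in 104 of 158 cases and in liver in 8. The 49 member spots from AW or AU clones came from only 13 clones, and 31 were called in spleen and 10 in liver. Those 10 were the spots of the AW clones of Rpl27a, Rpl32 and Rpl35a. Shares by clone type over all spots were not counted. For 20 of the 47 members every fully measured spot was called on the spleen side, and for 2, Rps2 and Rps27l, on the liver side.

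Other genes held to carry TOP mRNAs, not all of them translation machinery, followed in part. Of 13 further genes known or held to carry TOP mRNAs that could be tested (21 listed), 7 (53.8%) were called on the spleen side. None was called on the liver side (limma), where the shares of all genes were 27.8% in spleen and 27.1% in liver. On the liver side none had an unadjusted p under 0.05 either, nor was any called with each gene's own variance. When each gene was read from its spot with the largest absolute ratio, 1 was called there. The median was -0.47. Vimentin (Vim), also a stromal filament protein, stood at -1.94 ± 0.26 (adjusted p = 0.000271), and the nucleolar chaperone Npm1 at -1.53 ± 0.18 (adjusted p = 0.000408). The elongation factor genes Eef1a1 (0.05 ± 0.14), Eef1g (-0.05 ± 0.09) and Eef1d (-0.19 ± 0.17) were not called. Fau, whose product is processed into a ubiquitin-like protein and the small-subunit protein RPS30, read -0.15, -0.30 and -0.28 (-0.25 ± 0.08, adjusted p = 0.12). Nsa2, an assembly factor of the large subunit, stood at -0.69 ± 0.11 (adjusted p = 0.00488), a call lost without array 1 (adjusted p = 0.0586).

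Genes of ribosome assembly were called in both directions. Of 20 tested (49 listed), 8 (40%) were called on the spleen side and 5 (25%) on the liver side, against 27.8% and 27.1% of all genes, and their median was 0.03 against -0.03, so the list lay near the array as a whole. Npm1, which was also counted among the TOP mRNA genes, and nucleolin (Ncl, -1.12 ± 0.22, adjusted p = 0.00132) were the lowest. Eif6, which keeps the subunits apart until the large one is mature, stood at 0.82 ± 0.35 (adjusted p = 0.0091), and Wdr43, of the small-subunit processome, at 0.81 ± 0.46 (adjusted p = 0.0165). The calls of Eif6 and Wdr43 were lost without array 1 (adjusted p = 0.0768 and 0.0829), when 3 assembly genes were called in spleen and none in liver (3 at an unadjusted p under 0.05). Without array 2 or array 3, 3 were called in liver. No S6 kinase had a ratio on all 3 arrays: Rps6ka5 read -1.81 and -1.06 on arrays 1 and 3, Rps6ka6 0.67 and 0.33 on the same arrays, and Rps6kb2 0.31 on array 3.

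Ribosomal proteins of the mitochondrion, whose ribosome translates the respiratory chain subunits encoded in mitochondrial DNA, lay on the other side. Of 39 genes with symbols of the form Mrpl or Mrps and a number that were tested (46 named), 32 (82.1%) were higher in liver (limma). None was higher in spleen, nor at an unadjusted p under 0.05. Of all genes, 27.1% were called higher in liver and 27.8% in spleen. The median of the set was 0.80, with per-array medians of 0.82, 0.97 and 0.69. This set was added after the ratios had been seen.

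**Figure D4:**
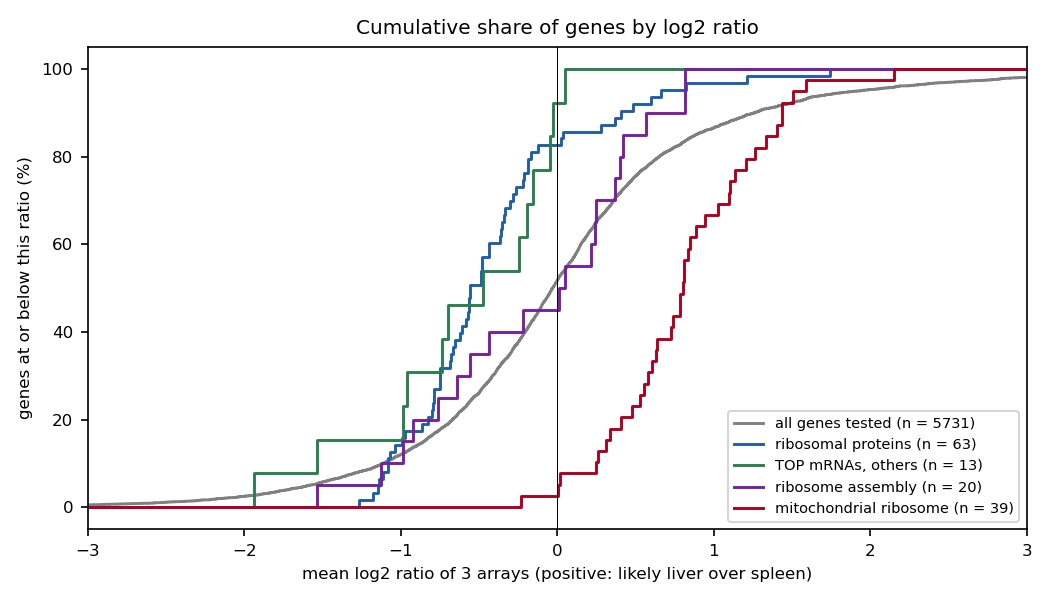
Cumulative share of genes (y axis, percent) by mean log2 ratio of 3 arrays (x axis; positive is likely liver over spleen) for all 5731 genes tested, the 63 ribosomal protein genes, 13 further TOP mRNA genes, 20 ribosome assembly genes and 39 mitochondrial ribosomal protein genes. The ribosomal protein curve lies left of that of all genes (medians -0.56 and -0.03) and the mitochondrial one right of it (median 0.80).

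Markers of blood cells moved to the same side as the cytosolic ribosomal protein genes. All 3 B-cell markers tested (of 6 listed; -3.93 to -2.73) and all 3 myeloid markers (of 4; -3.68 to -1.07) were higher in spleen, as were 3 of 4 T-cell markers tested (of 5 listed) and 3 of 4 erythroid markers. Cd3d (1.24 ± 0.16) and Alas2 (0.91 ± 0.59) were higher in liver. Both hepatocyte markers tested (of 10 listed), Apoh (5.16 ± 0.17) and Fgb (4.14 ± 1.41), were higher in liver. Fgb, Ms4a1 and Ighm had served to set the direction of the ratio, so their sides restate that choice. Channel levels were not used here, so no level of a marker in either tissue can be given, and the part of these cells in the ribosomal protein ratios was not tested.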

How the data were processed

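Per spot and array, the authors deposited 1 value, a log2 ratio of the channels. That the base is 2 follows from the highest value, the log2 of 100. Not given in the sources used here are the background correction, the normalization, the scaling and centring, and which channel was the numerator. Of 16273 spots, 13066, 11120 and 15210 had a ratio other than exact 0 on arrays 1, 2 and 3 (219, 218 and 236 of the 241 ribosomal protein spots), and the medians of these ratios were -0.02, 0.03 and 0.05. Exact 0 was taken as missing. Depth does not apply; the number of arrays limits the precision.

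Gene names came from the platform annotation and were brought up to date through Entrez identifiers in RefSeq (GRCm38.p6; 12228 of 12336 spots matched). No ribosomal protein symbol changed. Spots of a gene were averaged per array. Mean ratios of genes with a value on all 3 arrays were set against 0 using limma 3.58.1 (R 4.3.3; lmFit, eBayes, two-sided; 2 residual and 3.51 prior degrees of freedom, prior SD 0.24), adjusted over all 5731 genes; spots were fitted likewise over 8284 spots. The fit was tested on simulated data. No set test was run.

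Genes were named by rule: the 10 lowest called members, all called on the liver side, those with spots called on opposite sides, the stalk genes and Rpsa, paralogs with their parents, the 3 smallest uncalled, and the 2 lowest and highest called of each related list; other members were given in ranges or as neighbours of the threshold, and the remaining related and marker genes were chosen after their values were seen. The members and lists were chosen with earlier results of these data known. Alternatives covered exact 0, centring, scaling, how spots are averaged or selected, AW and AU clones, the variance, a 2-fold null, and leaving out each array. Others took genes with values on at least 2 arrays, or the annotation's own symbols.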

Additional observations from a re-analysis of the deposited data

How the results depend on the processing

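With exact 0 kept as a ratio, the median was -0.48 for ribosomal protein genes and -0.25 for TOP mRNA genes, and the subunit medians moved to -0.37 (large, array 2), -0.62 (small, array 1) and -0.55 (small, array 2). Centring and scaling the arrays gave ribosomal protein medians of -0.58 and -0.52. The median of a gene's spots gave -0.52 (large, array 1), -0.70 (small, array 2) and -0.67 (small, array 3). The spot with the largest absolute ratio gave medians of -0.72 for ribosomal protein, -0.62 for TOP and 0.11 for assembly genes, 1 TOP gene called on the liver side, and Rpl39 at 1.01. Without AW and AU clones the medians were -0.50 (ribosomal protein) and -0.36 (TOP), and -0.37 (large, array 2), -0.46 (large, array 3) and -0.57 (small, array 2) for the subunits; 4 genes and 9 spots were called in liver, with Rpl32 at -0.50 and Rpl35a at -0.36. Without the paralogs and partners 4 genes were called in liver. With each gene's own variance 21 ribosomal protein genes and 67 spots, 4 TOP genes and 2 assembly genes were called in spleen, and 2 assembly genes in liver. Against a 2-fold null (limma treat) the counts were 0 in spleen and 1 in liver for ribosomal protein genes (1 in spleen at an unadjusted p under 0.05), 2 TOP genes and 1 assembly gene in spleen, and 0 assembly genes in liver (0 unadjusted). Leaving out 1 array gave medians of -0.53 to -0.51 and counts of 19 to 34 in spleen and 3 to 7 in liver for ribosomal protein genes, and 3 to 8 in spleen and 0 to 3 in liver for assembly genes (3 in liver at an unadjusted p under 0.05 where the adjusted count was 0). Averaging clones first, chosen after seeing the data, put Rpl32 at -0.0066. Of the values of named genes under these alternatives, 454 kept side and call, 58 lost the call (27 of them against the 2-fold null), 4 gained one, 4 turned side with a call before or after, and 5 (of Rpl10, Rpl17 and Rpl24) turned side with none. The cause was not tested. The 454 include 35 from the annotation's own symbols, where no ribosomal protein symbol differed. Another 35 are from genes with values on at least 2 arrays, which leaves the means of fully measured genes unchanged. Counts over all genes were not taken under the alternatives. No paired analysis was possible because the arrays form 1 group.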
